A study of Mus musculus with 8 samples.

Results

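A set of 10 liver transcripts of the acute phase response was followed across 8 mouse livers. They are the serum amyloid A genes Saa1, Saa2, Saa3 and Saa4, haptoglobin (Hp), the orosomucoid genes Orm1 and Orm2, serum amyloid P (Apcs), hepcidin (Hamp) and lipocalin 2 (Lcn2). The 10 genes were taken by name through the array's gene annotation, and each of the 10 was represented by 1 probe set that carried its symbol alone, out of 19938 genes measured. The mice were adult males, fasted 16 h and refed 3 h before the livers were taken. Of these, 4 were controls labelled wild type, and 4 carried a floxed Rictor allele deleted in the liver by Cre recombinase under the albumin promoter, which is active in hepatocytes. Whether the controls carried the floxed allele or Cre is not stated in the labels, and each array was made from 1 liver sample. Rictor is a subunit of mTOR complex 2, which phosphorylates Akt in the response to insulin, and the comparison asks how refed liver transcripts differ when it is deleted in hepatocytes. Values were made with RMA and are given in log2 units, of which 1 is a 2-fold change, and a difference is the mean of the 4 knockout-labelled arrays less that of the 4 controls.

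In inflammation, interleukin-1 and tumour necrosis factor act through NF-kB, and interleukin-6 acts through its receptor Il6ra, gp130 (Il6st) and STAT3. Together with the C/EBP factors these signals raise the transcription of a set of plasma proteins in hepatocytes. Saa1 and Saa2 are the strongly inducible members that associate with high-density lipoprotein, Saa3 is inducible and also made in macrophages and fat, and Saa4 is the constitutive member made in liver. Haptoglobin binds free haemoglobin, the orosomucoids are carriers of small lipophilic ligands, serum amyloid P is a pentraxin, hepcidin lowers iron export through ferroportin, and lipocalin 2 binds bacterial siderophores and is stored in neutrophil granules.

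The start-site windows of the genes that the results turn on are shown because Saa1 and Saa2 are near copies whose values shared only part of their order, Saa4 is their neighbour, Orm2 varied across arrays with Saa2, and Hamp is the one with both a STAT and a BMP motif. The windows are from RefSeq on GRCm38.p6, cover 250 bases before to 50 bases after the gene's start, and run 5′ to 3′ on the gene's strand. They lie at chr7:46742931-46743230 (minus strand) for Saa1, chr7:46751583-46751882 (plus strand) for Saa2, chr7:46732554-46732853 (minus strand) for Saa4, chr4:63362199-63362498 (plus strand) for Orm2 and chr7:30943980-30944279 (minus strand) for Hamp. Capitals mark matches to the C/EBP motif TTGCNNAA, the STAT motif TTCNNNGAA, the BMP element GGCGCC and the TATA box TATAAA, each searched on both strands.
Saa1: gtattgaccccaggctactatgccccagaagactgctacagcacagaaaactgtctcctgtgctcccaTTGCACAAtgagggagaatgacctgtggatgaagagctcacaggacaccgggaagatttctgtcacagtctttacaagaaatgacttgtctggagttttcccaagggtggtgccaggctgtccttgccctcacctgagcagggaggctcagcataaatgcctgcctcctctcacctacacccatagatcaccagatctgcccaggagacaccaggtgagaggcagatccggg
Saa2: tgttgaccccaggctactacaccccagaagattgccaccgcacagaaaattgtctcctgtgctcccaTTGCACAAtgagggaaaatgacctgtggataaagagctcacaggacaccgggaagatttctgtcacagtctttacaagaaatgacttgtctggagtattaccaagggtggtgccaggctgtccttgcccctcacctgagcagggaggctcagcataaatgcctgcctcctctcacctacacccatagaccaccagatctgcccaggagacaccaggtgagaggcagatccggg
Saa4: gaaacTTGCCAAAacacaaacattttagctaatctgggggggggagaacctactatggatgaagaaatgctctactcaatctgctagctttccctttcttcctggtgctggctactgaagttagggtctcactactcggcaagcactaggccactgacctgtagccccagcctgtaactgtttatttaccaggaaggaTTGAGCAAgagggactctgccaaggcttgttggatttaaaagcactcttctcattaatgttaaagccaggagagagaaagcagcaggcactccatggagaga
Orm2: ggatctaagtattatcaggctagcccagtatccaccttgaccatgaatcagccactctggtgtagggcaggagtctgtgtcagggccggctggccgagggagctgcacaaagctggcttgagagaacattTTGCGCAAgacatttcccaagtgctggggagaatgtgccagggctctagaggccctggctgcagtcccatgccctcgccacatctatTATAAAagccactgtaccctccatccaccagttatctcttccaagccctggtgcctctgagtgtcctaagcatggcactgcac
Hamp: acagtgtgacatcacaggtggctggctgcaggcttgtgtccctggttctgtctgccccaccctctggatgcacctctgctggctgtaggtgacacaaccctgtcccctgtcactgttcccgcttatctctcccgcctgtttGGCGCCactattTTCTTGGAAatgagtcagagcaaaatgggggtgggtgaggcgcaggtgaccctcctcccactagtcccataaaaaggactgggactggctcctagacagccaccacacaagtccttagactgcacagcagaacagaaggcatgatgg

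Of the 10 genes, 8 had such a window in the RefSeq table. The C/EBP motif was found in 6 of these (Saa1, Saa2, Saa3, Saa4, Orm2 and Lcn2), against 10.8% of 27025 windows of the same length, 1 per gene. Its first base lay at position -182 from the start in Saa1 and at -183 in Saa2, with the same 8 letters TTGCACAA. The STAT motif was found in Hamp and Apcs (8.47% of all windows), the BMP element in Hamp (12.0%), the TATA box in Orm2 (14.2%), and the NF-kB consensus in none of the 8 (4.35%). The windows of Saa1 and Saa2 were identical in 287 of 301 aligned columns, or 95.3%, whereas Saa4 matched Saa1 in 46.8% and Saa3 matched Saa1 in 50.9%. These are matches of letters and not measured sites. In the gene table the 4 Saa genes follow each other on chromosome 7 in the order Saa3, Saa4, Saa1, Saa2, and the table lists Saa1 and Saa2 each as an older name of the other, so the 2 names are used here as the array annotation gives them.

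Array medians were 6.90 to 7.03, and arrays correlated with each other at 0.987 to 0.994. The Rictor probe set had a mean of 9.40 in controls and 9.45 in the knockout-labelled group, so it does not check the labels. Which exons it covers was not examined. On the first principal component (35.5% of the variance) knockout-labelled array 1 lay at -0.292 among controls 2 to 4 (-0.355 to -0.292), control 1 at -0.0497, and knockout-labelled arrays 2 to 4 at 0.417 to 0.464. The differences of the 10 genes are therefore also given without knockout-labelled array 1 where that moves them by over 1.5 times. Hepatocyte marker transcripts were present on every array, with a mean over 9 markers of 13.63 to 13.68.

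In the livers labelled as Rictor knockouts the acute phase genes did not all differ from controls in the same direction. The genes differed among themselves: the mean of Saa1 was 2.56-fold higher than in controls and that of Saa4 1.49-fold lower. The signals of Hp and Hamp, among the brightest on the arrays, differed by up to 1.07-fold, and what compression of bright signal adds to that was not tested. None of the 10 passed after adjustment over the probe sets tested (limma, lowest adjusted p = 0.285), and of all 19938 genes 0% did (lowest adjusted p = 0.0993, 2062 with an unadjusted p under 0.05). Saa1 and Saa4 had an unadjusted limma p under 0.05, that is 2 of 10 against 10.3% of all genes. The groups did not overlap in 1 gene, Saa1, against 4.42% of all genes. A higher mean in the knockout-labelled group was seen in 4 of 10 genes, against 43.1% of all genes, and the median difference was -0.09 against -0.02 over all genes. Without knockout-labelled array 1 the median of the 10 was -0.19, with Saa1, Saa3 and Hp higher and the others lower. The median over all genes was not taken in that fit, and a shared shift was not tested.

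**Figure D1:**
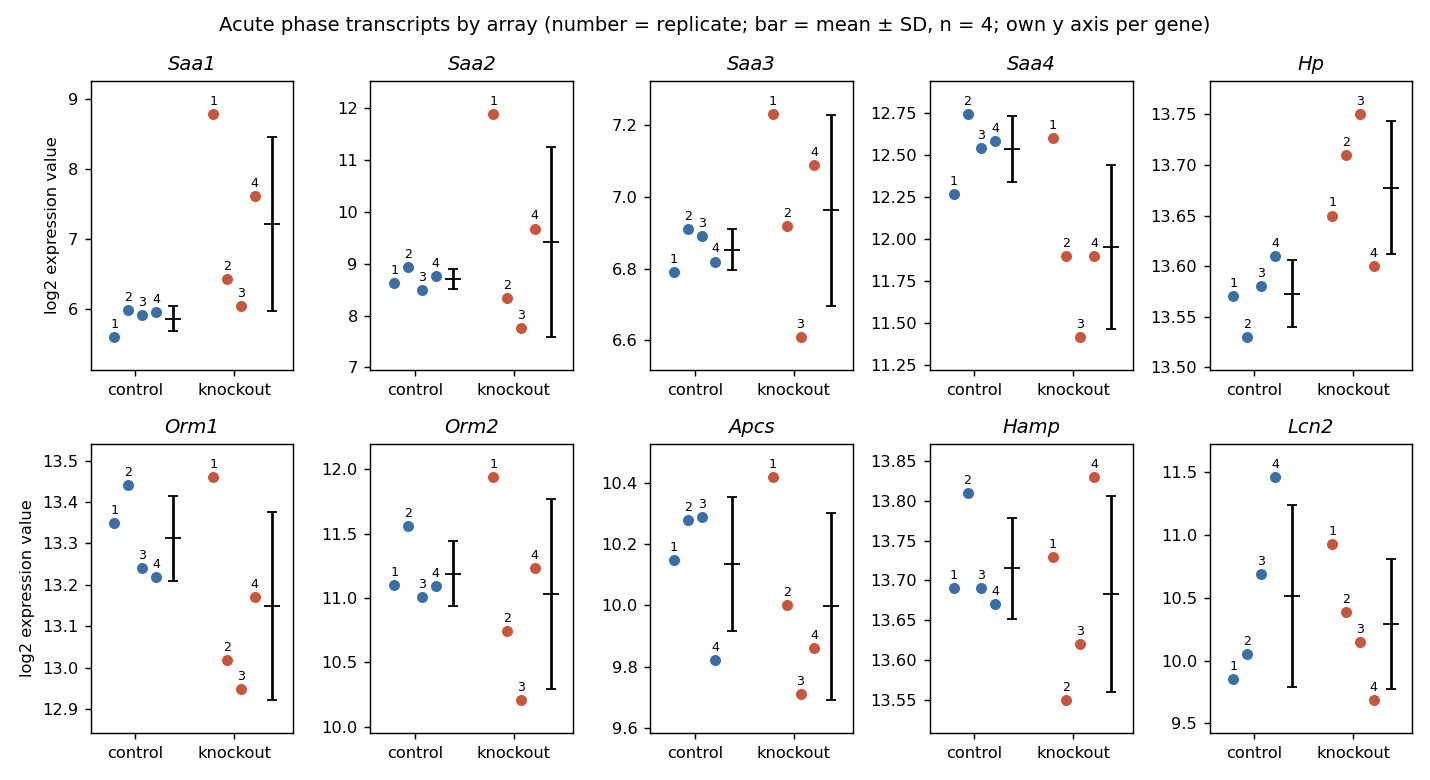
Log2 expression value (y axis, own scale for each gene) of the 10 acute phase genes on each array, controls in blue and knockout-labelled arrays in red, numbered by replicate, with the mean ± SD of 4 arrays as a bar. Saa1 and Saa2 spread over 2.74 and 4.11 units among the knockout-labelled arrays and over 0.38 and 0.44 units among the controls.

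The genes varied widely between individual livers. In 5 of 10 genes (Saa1, Saa2, Saa4, Orm2 and Lcn2) the highest and lowest of the 8 arrays differed by more than 1 log2 unit, against 2.94% of all genes, and the median range was 1.02 units against 0.41 over all genes. Of all 19938 genes, 7958 lay below the array median on every array, and 0 of the 10 did. The shares over all genes were not matched for brightness. In 9 of the 10 the range was wider among the knockout-labelled arrays than among the controls, against 56.9% of all genes. The exception was Lcn2. This count rests in part on knockout-labelled array 1. In Apcs knockout-labelled arrays 2 to 4 read 9.71 to 10, and the controls 9.82 to 10.29. In Saa2 those 3 arrays still spread wider, with 7.77 to 9.68 against 8.50 to 8.94 in controls. The 10 genes vary together in part and are not 10 separate observations.

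Saa1, an inducible serum amyloid A gene, read 5.60, 5.98, 5.91 and 5.95 in controls 1 to 4 and 8.78, 6.43, 6.04 and 7.61 on knockout-labelled arrays 1 to 4. Every knockout-labelled array lay above every control, but arrays 2 and 3 only by a little, and arrays 1 and 4 stood far above the rest, at 7.57-fold and 3.37-fold of the control mean. The difference was 1.35 (SE 0.45; 95% interval 0.38 to 2.33; limma adjusted p = 0.285; exact two-sided permutation p = 0.0286, the smallest that 4 against 4 arrays allow). It did not pass in any of the 19 alternatives, in which the limma adjusted p ranged from 0.120 to 0.581. Without knockout-labelled array 1 it was 0.83, and with control 1 left out as well it was 0.75 (limma adjusted p = 0.128 and 0.147). The signal of this probe set was dim: on 6 of the 8 arrays, all controls included, it lay below the array median.

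Saa2, the other inducible gene of the pair, read 8.63, 8.94, 8.50 and 8.77 in controls and 11.88, 8.34, 7.77 and 9.68 on knockout-labelled arrays 1 to 4. Knockout-labelled arrays 1 and 4 lay above all controls, at 9.0-fold and 1.96-fold of the control mean, and arrays 2 and 3 lay below all controls. The difference of the means was therefore 0.71 (SE 0.65; 95% interval -0.71 to 2.13; limma adjusted p = 0.751; exact permutation p = 0.60), and without knockout-labelled array 1 its sign turned to -0.11 (limma adjusted p = 0.914). Saa1 and Saa2 thus shared their 2 highest arrays, but in Saa1 arrays 2 and 3 lay above the controls and in Saa2 below them. Because the pair are near copies, probes of one gene may also take up RNA of the other, and this was not tested.

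**Figure D2:**
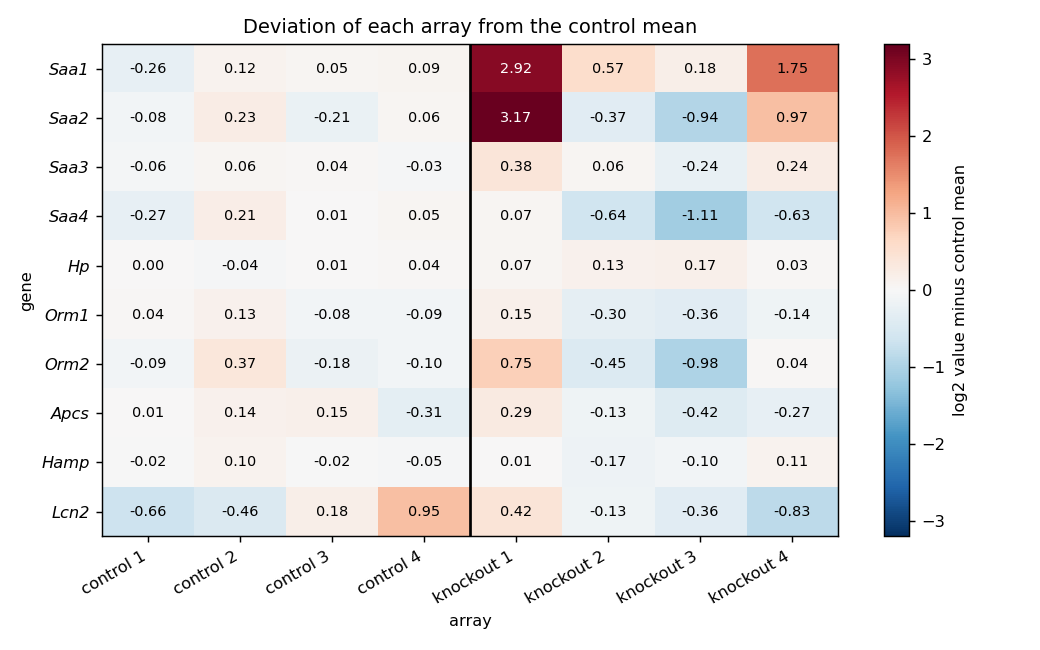
Log2 value minus the control mean, for each of the 10 genes (rows) on each of the 8 arrays (columns), red for higher and blue for lower, with the value printed. Knockout-labelled array 1 is above the control mean in every row, by 0.01 (Hamp) to 3.17 (Saa2), and the share of all genes was not counted. Knockout-labelled array 3 is lowest in 6 rows.

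Saa3, the member also made in macrophages and fat, read 6.79 to 6.91 in controls and 7.23, 6.92, 6.61 and 7.09 on the knockout-labelled arrays. Again arrays 1 and 4 were the highest and array 3 the lowest, on a smaller scale, and the difference was 0.11 (SE 0.12; limma adjusted p = 0.791), or 0.02 without knockout-labelled array 1. The probe set was near the array medians on all arrays.

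Saa4, the constitutive liver member, had a lower mean. It read 12.27, 12.74, 12.54 and 12.58 in controls and 12.60, 11.90, 11.42 and 11.90 on the knockout-labelled arrays. Knockout-labelled arrays 2 to 4 lay below all controls, at 1.55-fold to 2.16-fold under the control mean, and array 1 lay within the controls. The difference was -0.58 (SE 0.20; 95% interval -1.0 to -0.15; limma adjusted p = 0.299; exact permutation p = 0.114). Saa4 was the 1 gene of the 10 to pass under any alternative. It passed at -0.79 when arrays were weighted, at -0.79 when knockout-labelled array 1 was left out and at -0.88 when control 1 was left out too, with limma adjusted p = 0.0273, 0.00949 and 0.00109. Over its 20 alternatives the limma adjusted p ranged from 0.00109 to 0.705. The share of all genes called lower in those fits was 2.11%, 3.14% and 4.96%. Weighting counts an array less the farther it is from others of its label, and knockout-labelled array 1 had the lowest weight (0.471). All 3 fits thus discount or leave out that array and are not separate support. Leaving out both arrays numbered 1 was decided after the data were seen.

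Orm2 read 11.10, 11.56, 11.01 and 11.09 in controls and 11.94, 10.74, 10.21 and 11.23 on the knockout-labelled arrays. As in Saa2, array 1 lay above all controls, arrays 2 and 3 below them, and the group means differed little (-0.16, SE 0.28; limma adjusted p = 0.888). The sign rested on single arrays, with a difference of 0.11 when knockout-labelled array 3 was left out and -0.47 when array 1 was (limma adjusted p = 0.961 and 0.257). Orm1 read 13.35, 13.44, 13.24 and 13.22 in controls and 13.46, 13.02, 12.95 and 13.17 on the knockout-labelled arrays, which is the same order of the knockout-labelled arrays within a narrower span. Its difference was -0.16 (SE 0.10; limma adjusted p = 0.587), and without knockout-labelled array 1 it was -0.27 (limma adjusted p = 0.0726). The orosomucoid genes are close paralogs, and how the array's probes divide between them was not examined.

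The signals of haptoglobin and hepcidin spanned 0.22 and 0.28 units over all arrays, at the bright end of the scale. Hp read 13.57, 13.53, 13.58 and 13.61 in controls and 13.65, 13.71, 13.75 and 13.60 on the knockout-labelled arrays. Its difference was 0.10 (SE 0.05; 95% interval -0.01 to 0.22; limma adjusted p = 0.503). Array 3, the lowest of 6 other genes, was the highest for Hp. Hamp read 13.69, 13.81, 13.69 and 13.67 in controls and 13.73, 13.55, 13.62 and 13.83 on the knockout-labelled arrays. Its difference was -0.04 (SE 0.07; 95% interval -0.18 to 0.11; limma adjusted p = 0.892). Both probe sets were among the brightest of the array, at or above the 99.4th percentile. Whether signal this bright is compressed was not tested, so a small range or difference does not show that the transcripts were at one level.

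Apcs, the pentraxin that is an acute phase protein of the mouse, read 10.15, 10.28, 10.29 and 9.82 in controls and 10.42 on knockout-labelled array 1 and 9.71 and 9.86 on arrays 3 and 4, with array 2 below array 1 and above arrays 3 and 4. Its difference was -0.13 (SE 0.15; limma adjusted p = 0.809), and -0.27 without knockout-labelled array 1 (limma adjusted p = 0.278). The groups overlapped over most of their range. Lcn2 had an order of its own. It read 9.85, 10.05, 10.69 and 11.46 in controls and 10.93, 10.39, 10.15 and 9.69 on the knockout-labelled arrays, so that control 4 was the highest and knockout-labelled array 4 the lowest. Its difference was -0.23 (SE 0.32; 95% interval -0.93 to 0.48; limma adjusted p = 0.854). It was 0.09 without control 4, -0.44 without knockout-labelled array 1, -0.44 without control 1 and -0.66 with both of the latter left out (lowest limma adjusted p = 0.19).

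**Figure D3:**
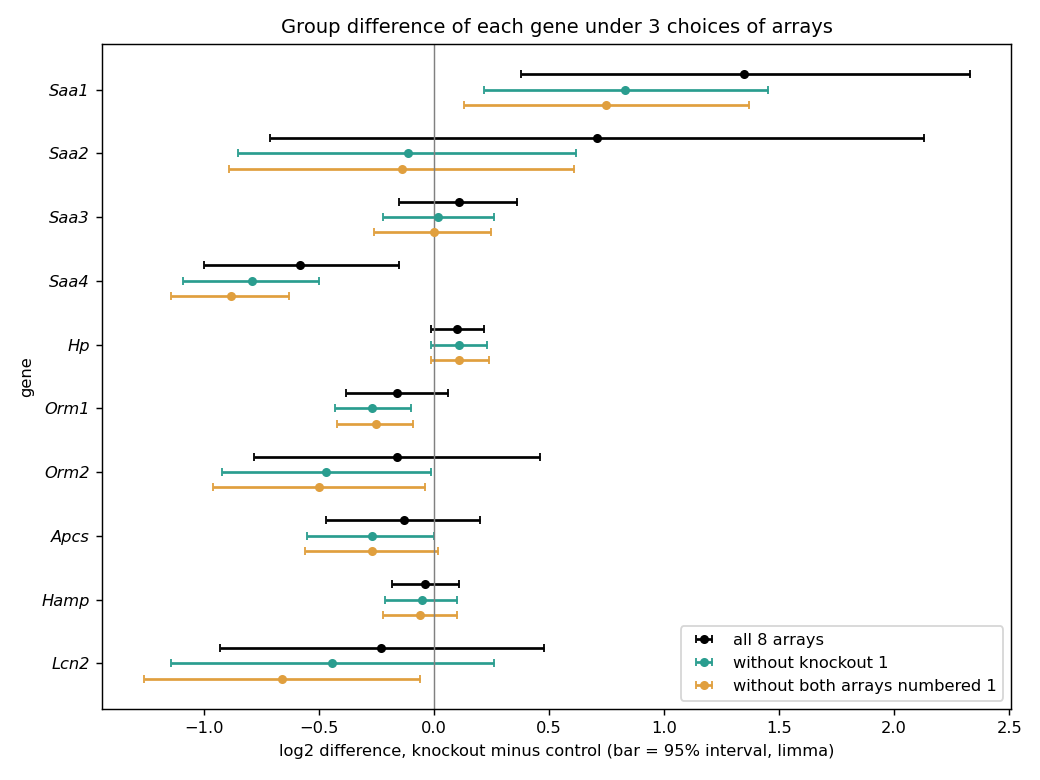
Log2 difference, knockout-labelled minus control (x axis), with its 95% interval for each of the 10 genes, from all 8 arrays, without knockout-labelled array 1, and with both arrays numbered 1 left out. The interval of Saa1 is above 0 and that of Saa4 below 0 in all 3 fits, and the difference of Saa2 goes from 0.71 to -0.11 without knockout-labelled array 1; the intervals are not adjusted for the number of genes.

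Across arrays the genes followed 2 arrays above all. Knockout-labelled array 1 was the highest of the 8 arrays in 6 of 10 genes (Saa1, Saa2, Saa3, Orm1, Orm2 and Apcs), against 10.9% of all genes. It lay above the control mean in all 10, but only by 0.01 for Hamp and 0.07 for Hp and Saa4. Control 2 lay above that mean in 8 of the 10. The share of all genes above their control mean was not counted for either array. Knockout-labelled array 3 was the lowest in 6 of 10 (Saa2, Saa3, Saa4, Orm1, Orm2 and Apcs), against 12.9% of all genes. The mean deviation over the 10 genes from the control mean was 0.82 on knockout-labelled array 1, -0.14 on array 2, -0.42 on array 3 and 0.13 on array 4, and -0.14 to 0.08 on the controls. The labels give the same treatment for all 4 mice, and what else these livers differed in was not tested.

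Pairs of genes were compared over the 8 arrays, 45 pairs in all, 37 of them with a positive Pearson r. After Benjamini-Hochberg adjustment over the 45 pairs, 2 passed by Pearson's r and 0 by Spearman's rho (14 and 8 pairs without adjustment, exact permutation tests over 40320 orders). The pairs reuse the same genes and arrays, and such counts were not taken for pairs of other genes. Whether the counts are particular to the acute phase genes was therefore not tested. Orm1 and Orm2 had r = 0.910 (exact permutation p = 0.00156, adjusted p = 0.0424) and rho = 0.833 (exact permutation p = 0.0154, adjusted p = 0.115), and r was 0.828 without the 2 arrays farthest from the median of Orm1. Saa2 and Saa3 had r = 0.896 (exact permutation p = 0.00188, adjusted p = 0.0424) and rho = 0.690 (exact permutation p = 0.0694, adjusted p = 0.284), and r was 0.731 without the 2 farthest arrays.

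Saa2 and Orm2, which lie on different chromosomes, kept almost the same order over the 8 livers, with rho = 0.952 (exact permutation p = 0.00114, adjusted p = 0.0513) and r = 0.845 (exact permutation p = 0.00744, adjusted p = 0.0670). Without knockout-labelled arrays 1 and 4, the 2 farthest from the median of Saa2, their r was 0.976. For Saa1 and Saa2 r was 0.902 (exact permutation p = 0.0137, adjusted p = 0.102) and rho 0.405 (exact permutation p = 0.327, adjusted p = 0.525). Without the same 2 arrays their r was -0.315, so that r over the pooled groups rested on them. As deviations from each group's own mean, those 2 arrays included, r was 0.984 for Saa1 and Saa2 and 0.953 for Saa2 and Orm2, with no test. From the highest, the knockout-labelled arrays ran in the order 1, 4, 2, 3 in Saa1, Saa2 and Orm2 alike. Saa4 and Orm1 had r = 0.863 and rho = 0.881 (exact permutation p = 0.00568 and 0.00724, adjusted p = 0.0639 and 0.115), and r was 0.612 without the 2 farthest arrays. Points of all these pairs share the array and the group.

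**Figure D4:**
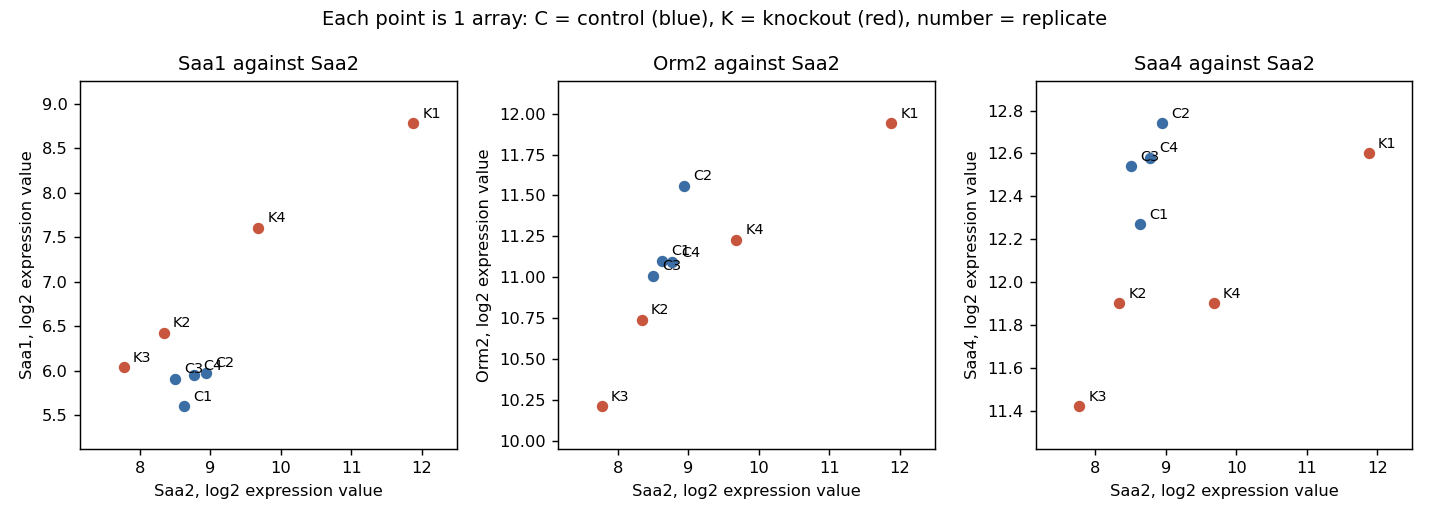
Log2 expression values of Saa1, Orm2 and Saa4 (y axes) against Saa2 (x axis), 1 point per array, controls in blue and knockout-labelled arrays in red. Orm2 follows Saa2 over all arrays (rho = 0.952). With the groups pooled, Saa1 follows Saa2 mainly through knockout-labelled arrays 1 and 4, and Saa4 is low on knockout-labelled arrays 2 to 4.

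Other positive acute phase genes of the liver had a median difference of 0.02. Of 25 listed, 22 were measured, 0 passed the limma threshold, and 4 higher and 0 lower genes had an unadjusted limma p under 0.05 (Fgl1, Hpx, Itih3 and Cd14), beside 3.82% of all genes higher and 6.53% lower. Itih3 and Cd14, named after their values were seen, differed by 0.17 (SE 0.07) and 0.34 (SE 0.15; lowest limma adjusted p of both = 0.411). The mean of the 22 genes was 11.58 to 11.60 on the controls and 11.59 to 11.69 on the knockout-labelled arrays, and 11.63 on array 1, where Saa1 and Saa2 were highest. Crp, a pentraxin that is weakly inducible in the mouse, differed by -0.08 (SE 0.07), Lbp, which binds bacterial lipopolysaccharide, by 0.01 (SE 0.07; -0.015 after quantile normalization), Fgb, the fibrinogen beta chain, by 0.03 (SE 0.05) and Lrg1, a leucine-rich glycoprotein, by -0.09 (SE 0.10). The lowest limma adjusted p of these 4 was 0.734.

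Fgl1, a fibrinogen-like protein secreted by the liver, had the largest difference of that list, 0.67 (SE 0.22; limma adjusted p = 0.279). It read 12.49, 11.94, 11.57 and 11.71 in controls and 11.96, 12.91, 12.83 and 12.69 on the knockout-labelled arrays, so that knockout-labelled array 1 was within the controls and control 1 was the nearest control to arrays 2 to 4. It passed in the same 3 alternatives as Saa4 (limma adjusted p = 0.0327, 0.0185 and 0.000115). In those fits 673, 838 and 1443 of all genes passed in either direction. Hpx, which binds haem, read 13.73 to 13.87 in controls and 13.90 to 13.96 on the knockout-labelled arrays, with no overlap (0.12, SE 0.05; limma adjusted p = 0.391).

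Genes known to fall in the acute phase were read in the same way. All 12 listed were measured, 0 passed, 0 higher and 1 lower gene had an unadjusted limma p under 0.05, and the median was 0.01. Alb (albumin) differed by 0.01 (SE 0.04; -0.0095 after quantile normalization) and Ttr (transthyretin) by 0.04 (SE 0.05). Serpina6, corticosteroid-binding globulin, differed by -0.34 (SE 0.15; limma adjusted p = 0.435), with 12.08 on knockout-labelled array 3, and Afm (afamin) by -0.35 (SE 0.16; limma adjusted p = 0.462). With both arrays numbered 1 left out, Afm lay at -0.60 (limma adjusted p = 0.01). In that fit 4.96% of all genes were called lower, and Afm passed in only this 1 of its 20 alternatives.

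Among the signals that induce these genes, the cytokine ligands differed by -0.26 (Il1a) to 0.22 (Il1b). Of 10 listed 9 were measured, 4 of them below the array median on every array, and 0 passed (1 higher and 0 lower with an unadjusted limma p under 0.05). Il6 read 3.64 to 4.05 over all arrays, with a difference of 0.03 (SE 0.10), Tnf differed by 0.01 (SE 0.11), and Il1b read 6.69 to 6.79 in controls and 6.94, 6.62, 7.03 and 7.27 on the knockout-labelled arrays (0.22, SE 0.12; limma adjusted p = 0.511). Clcf1, a cytokine of the interleukin-6 family, read 6.89 to 6.97 in controls and 7.09 to 7.22 on the knockout-labelled arrays (0.20, SE 0.07, limma adjusted p = 0.331). Il1a, named after its values were seen, was not dim. It read 8.69, 8.87, 8.53 and 8.53 in controls and 8.93, 8.11, 8.02 and 8.51 on the knockout-labelled arrays (-0.26, SE 0.18, limma adjusted p = 0.628). This is the order of the knockout-labelled arrays seen in Saa2 and Orm2, and a link between them was not tested. Of 15 receptor and Janus kinase genes 13 were measured, 0 passed, and none had an unadjusted limma p under 0.05. Il6ra differed by 0.08 (SE 0.12), Il6st by 0.10 (SE 0.08), Tlr4, the lipopolysaccharide receptor, by 0.25 (SE 0.12) and Jak2 by -0.21 (SE 0.11; lowest limma adjusted p of these = 0.471). Il1r1 is not analysed here.

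Of the acute phase transcription factors 10 of 12 were measured, and 0 passed (1 higher and 0 lower with an unadjusted limma p under 0.05). The former was Cebpb, a C/EBP factor, which read 8.81, 8.70, 8.76 and 8.61 in controls and 8.83, 8.97, 9.39 and 9.15 on the knockout-labelled arrays. All knockout-labelled arrays lay above all controls, array 1 only just, and the highest Cebpb value was on array 3, where Saa2, Saa3, Saa4, Orm1, Orm2 and Apcs were lowest. The difference was 0.37 (SE 0.12; limma adjusted p = 0.279; exact permutation p = 0.0286), and it passed in 3 alternatives, the same as Saa4 (limma adjusted p = 0.0267 to 0.703 over 20 alternatives). In those 3 alternatives 673 to 1443 of all genes passed in either direction. Cebpd differed by 0.11 (SE 0.08), Stat3 by -0.05 (SE 0.08), Hnf4a by -0.13 (SE 0.06) and Creb3l3, a membrane-bound factor that acts on Apcs and Hamp, by -0.08 (SE 0.09). The 10 feedback inhibitors had a median of -0.02 with 0 passed and none with an unadjusted limma p under 0.05. Socs3, which STAT3 induces and which blocks the pathway, read 7.75, 8.02, 8.07 and 8.61 in controls and 8.69, 8.34, 8.57 and 8.23 on the knockout-labelled arrays (0.34, SE 0.17; limma adjusted p = 0.474), highest on array 1. Socs2 differed by 0.17 (SE 0.12).

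All 20 listed regulators of hepcidin and iron were measured, with a median of -0.01 and 0 passed (1 higher and 0 lower with an unadjusted limma p under 0.05). Hfe, which senses transferrin-bound iron with transferrin receptors, read 8.93 to 9.26 in controls and 9.36 to 9.38 on the knockout-labelled arrays (0.22, SE 0.09; limma adjusted p = 0.407). Tmprss6, the protease that lowers hepcidin by cleaving hemojuvelin, differed by 0.19 (SE 0.10), Hjv (hemojuvelin) by -0.09 (SE 0.09), Bmp6, the iron-induced ligand, by 0.06 (SE 0.10) and Bmpr2, its receptor subunit, by -0.18 (SE 0.09). Of the 8 receptor and clearance genes 7 were measured, 0 passed and none had an unadjusted limma p under 0.05. Cd36, a scavenger receptor that binds serum amyloid A, read 10.22 to 10.82 in controls and 11.20, 9.28, 10.01 and 9.78 on the knockout-labelled arrays (-0.56, SE 0.31; limma adjusted p = 0.546), and without knockout-labelled array 1 it was -0.93 (limma adjusted p = 0.0168). Without that array 3.14% of all genes were called lower. Cd36 passed in 2 of its 20 alternatives and not with array weights (limma adjusted p = 0.0864). Hmox1, haem oxygenase 1, differed by 0.29 (SE 0.21).

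**Figure D5:**
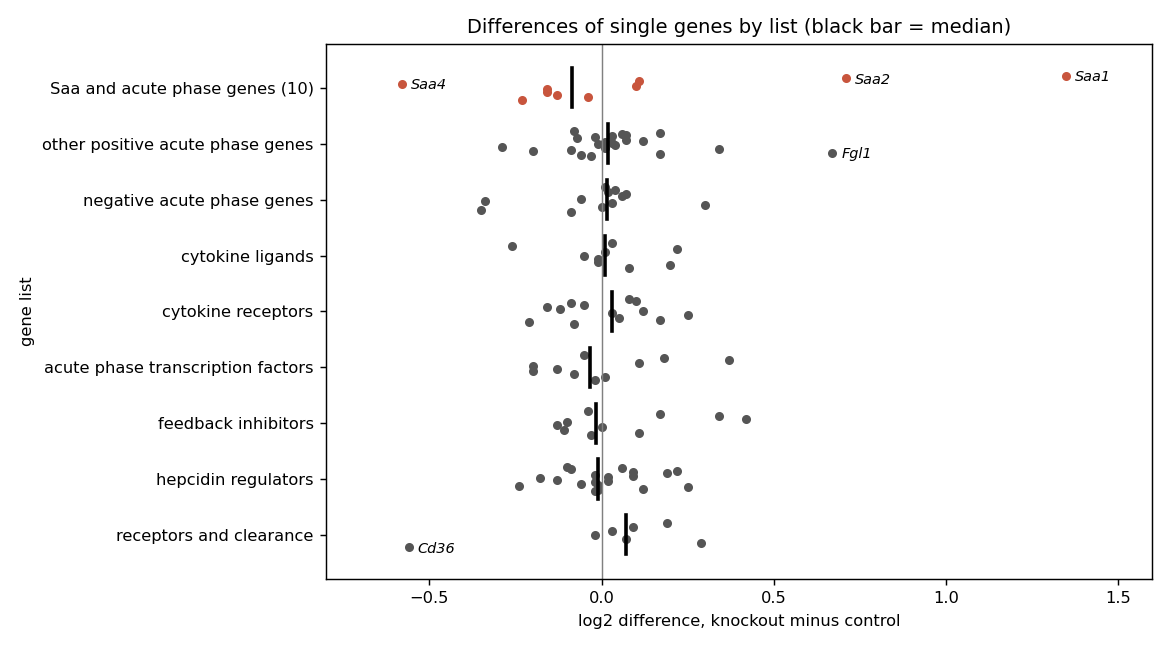
Log2 difference, knockout-labelled minus control (x axis), of every measured gene in the 10 acute phase genes (red) and in 8 related lists (grey), with the median of each list as a black bar and genes at 0.5 or more in either direction named. The list medians lie between -0.09 and 0.07, and the genes named are Saa1, Saa2, Saa4, Fgl1 and Cd36.

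Markers of other liver cells were read beside these results. Neutrophil markers, 9 of 9 measured, were all below the array median on every array (list mean 5.75 to 5.82 in controls and 5.69 to 5.86 in the knockout-labelled group), including S100a8 and S100a9, which are stored in the same cells as Lcn2, and control 4, the highest array for Lcn2, had a list mean of 5.75. Kupffer cell markers, 8 of 8 measured, had a list mean of 9.0 to 9.72 in controls and 9.60, 9.26, 9.17 and 10.15 on knockout-labelled arrays 1 to 4, with none below the array median throughout. Arrays 4 and 1, the highest of their group for Saa1, Saa2 and Saa3, were also the highest of it for these markers. Among the controls the list mean was 9.72, 9.63, 9.26 and 9.0 on arrays 1 to 4. Control 1, the highest of these, had the lowest Saa1 (5.6) and Saa3 (6.79) of the controls. Control 2, the next, had the highest Saa1 (5.98), Saa2 (8.94) and Saa3 (6.91) of them. Cholangiocyte markers, 4 of 5 measured and none below the array median on every array, had list means of 7.46 to 7.90 in controls and 7.82, 7.40, 7.37 and 7.36 on knockout-labelled arrays 1 to 4. Arrays 2 to 4, on which Saa4 was low, thus had the lowest list means of all, but the single markers differed. Epcam read 6.21, 6.31 and 6.06 on them (controls 6.72 to 7.07) and Sox9 9.18, 9.25 and 9.54 (controls 9.32 to 10.49). Krt19 read 7.09, 7.01 and 6.93 (controls 6.9 to 7.14). Krt7 read 7.13, 6.9 and 6.89 (controls 6.81 to 6.95) and was highest of all on array 2. Epcam differed by -0.46 (SE 0.17; limma adjusted p = 0.351), Sox9 by -0.44 (SE 0.25), Krt19 by 0.02 (SE 0.09) and Krt7 by 0.11 (SE 0.08). Lymphocyte markers, 5 of 6 measured and 4 of them below the array median on every array, all had lower means, with list means of 6.22 to 6.56 in controls and 6.11 to 6.37 in the knockout-labelled group (Cd79a -0.37, SE 0.13; limma adjusted p = 0.33). Cd79a had the largest difference of these 5 markers. Stellate cell markers (9.24 to 9.58 and 9.31 to 9.47), endothelial markers (10.25 to 10.58 and 10.29 to 10.61) and pancreas markers (6.46 to 6.56 and 6.36 to 6.60) had overlapping list means in controls and the knockout-labelled group. Adipocyte markers, 3 of 4 measured, had list means of 5.84 to 5.96 in controls and 5.85 to 5.97 in the knockout-labelled group. The part of any of these cells in the values was not tested, and in whole liver fewer cells of a type and less RNA per cell cannot be told apart.

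The genes whose values were most like those of the 3 most variable members were sought over all genes by Pearson r over the 8 arrays. For Saa2 they were Cass4 (0.978), Wnt3 (0.962), Ttr (0.947), Gbp5 (0.942) and Tmem100 (0.934). For Saa1 they were Olfr376 (0.917), Wnt3 (0.900), Gem (0.900), Cass4 (0.899) and Olfr675 (0.898). Their own spread was small (SD 0.05 to 0.21 units over the arrays, against 1.26 for Saa2 and 1.09 for Saa1), and without knockout-labelled array 1 the r values ranged from 0.608 (Tmem100) to 0.896 (Cass4) for Saa2 and from 0.635 (Cass4) to 0.894 (Gem) for Saa1. For Lcn2 they were Rnf146 (0.967), Cramp1l (0.962), Maml1 (0.961), Cers6 (0.955) and Ap2b1 (0.948), and these values were 0.942 to 0.982 without that array. The lists for the Saa genes and for Lcn2 had no gene in common. These r values are the highest among all genes measured and carry no test.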

How the data were processed

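Liver RNA of 8 mice was measured on 8 Affymetrix mouse gene arrays. The deposited table holds log2 expression values; the authors used Affymetrix Expression Console, RMA and Partek, per the submitters' processing notes, with no versions, and the log base was read from the range of the values. Of 35556 probe sets, 23410 had a gene symbol (21789 a single one), updated by Entrez identifier. Each gene was represented by its brightest probe set. Groups were compared with limma 3.58.1 in R 4.3.3 (lmFit, eBayes with trend, equal weights), with Benjamini-Hochberg adjustment over the 23410 probe sets and a threshold of 0.05; the procedure was tested on simulated data. Exact permutation tests used all 70 relabellings. The number of arrays limits precision, and depth has no meaning here. P-values measure the spread between these samples only. The members and lists were chosen with earlier results of these data known. Named genes were the members, 20 fixed regulators and plasma proteins (1, Il1r1, not analysed here), from each related list the 2 genes of smallest p, and the genes most like a member. Replicate numbers did not pair the arrays (correlations of deviations -0.0994, -0.128, -0.0356 and 0.0552). Alternatives were other weights, scaling, filters, probe sets tested, tests and arrays left out.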

Additional observations from a re-analysis of the deposited data

Results flagged for a closer look

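In groups of 4 arrays, 1 array that stands far from the other 3 is picked out by Dixon's ratio, which chance alone exceeds in about 1 of 20 groups. Over 57 genes and 114 groups, 3 such arrays were found, 1 of them in the 20 groups of the acute phase genes. Orm2 read 11.56 on control 2, with the next control at 11.10. Crp read 12.85 on knockout-labelled array 1, with the next array of its group at 12.65; this is the array on which Saa1, Saa2, Orm1, Orm2 and Apcs were highest. Clcf1 read 6.89 on control 2, below the next control at 6.95. Knockout-labelled array 1 was not picked out for Saa1 or Saa2 because array 4 was also high.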

How the results depend on the processing

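The count of acute phase genes past the threshold was 0 with all arrays at equal weights, and 1 (Saa4) with array weights, with knockout-labelled array 1 left out, and with control 1 left out as well, the last added after seeing the data. For all genes the counts were 673 with array weights, 1443 without both arrays numbered 1, and 0 to 838 with single arrays left out (838 without knockout-labelled array 1, 93 without control 1, 0 otherwise). The median difference of the 10 genes was -0.086, and -0.19 to 0.032 with single arrays left out. Saa4 differed by -0.79 with array weights and -0.88 without both arrays numbered 1, and by -0.79 to -0.40 with single arrays left out. With the replicate number as a block, which does not rest on a pairing in the design, 0 of the 10 genes and 0 of all genes passed, and Saa1 and Saa4 differed by 1.35 and -0.58 (limma adjusted p = 0.339 and 0.373).

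The sign turned for Saa2, at 0.71 over all arrays, and for genes with smaller differences. With single arrays left out the ranges were -0.11 to 1.26 for Saa2, -0.46 to 0.11 for Orm2, -0.44 to 0.090 for Lcn2, -0.086 to 0.0066 for Hamp, -0.38 to 0.046 for Orm3, -0.025 to 0.17 for Il6ra, -0.035 to 0.11 for Il6, -0.098 to 0.095 for Tnf, -0.010 to 0.12 for Bmp6, -0.030 to 0.042 for Lbp, -0.0034 to 0.021 for Alb and -0.030 to 0.14 for Rictor. Without both arrays numbered 1 Saa2 lay at -0.14, Saa3 at -0.0015 and Bmp6 at -0.028, and after quantile normalization Lbp lay at -0.015 and Alb at -0.0095. The cause of these changes was not tested. Centring and quantile normalization changed no sign among the 10 genes.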

Other observations

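The difference between the log2 values of Saa1 and Saa2 on the same array, looked at after their values were seen, was -3.03, -2.96, -2.59 and -2.83 in controls 1 to 4 and -3.10, -1.91, -1.73 and -2.07 on knockout-labelled arrays 1 to 4. Arrays 2 to 4 of the knockout-labelled group lay above all controls, and array 1, which had the highest Saa1 and Saa2 values of all, lay below them. The Saa1 signal was below the array median on all controls and on knockout-labelled arrays 2 and 3, and what its dim values do to these differences was not tested. No change of one gene against the other is read from them. The values of Saa4 minus Saa2 were 3.63, 3.80, 4.04 and 3.81 in controls and 0.72, 3.55, 3.65 and 2.22 on the knockout-labelled arrays.

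Of the paralogs outside the 10 genes, named for their family and not for their values, Orm3 read 9.24, 8.41, 8.23 and 8.77 in controls and 9.02, 7.74, 8.60 and 8.51 on the knockout-labelled arrays, highest on control 1 and lowest on knockout-labelled array 2. Hamp2 read 8.33, 8.75, 8.54 and 8.59 in controls and 8.49, 8.37, 8.23 and 8.27 on the knockout-labelled arrays (-0.22, SE 0.11; limma adjusted p = 0.482), beside -0.04 for Hamp. The start-site windows of Hamp and Hamp2 were identical in 91.1% of aligned columns.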
